A study of Mus musculus with 4 samples.

Results

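The 40 genes described here encode the core machinery of cell division and were taken as a fixed list of symbols from the 31054 features of the count tables, in which all 40 were found. They fall into 5 groups by role: 9 genes that license and fire replication origins, 8 genes of the replication fork and of nucleotide supply, 6 cyclins and cyclin partner genes, 13 genes of mitotic kinases, checkpoint, spindle and protein degradation, and 4 chromatin and proliferation markers. By the phase in which they are best known to act, 19 were also read as G1/S genes and 19 as G2/M genes, with Stmn1 and Hmgb2 in neither. Kidney cells were taken at an age of 19 months from male C57BL/6 mice that had received BPTES, an inhibitor of the glutaminase GLS1, or its vehicle DMSO for 1 month. Each group comprised 2 single-cell libraries made with the GEM-X 3' v4 chemistry of 10x Genomics, and nothing beyond BPTES separated the groups in the labels. After liberase digestion the cells were sorted on CD45, a surface protein of all leukocytes, and each library was loaded with 9000 positive and 20000 negative cells of the same tissue, so leukocytes are enriched and shares of cells do not give the makeup of the kidney.

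Before a cell copies its DNA, MCM helicase rings are loaded at origins by Cdc6 and Cdt1, and E2F factors switch on the genes for these proteins, for the polymerase clamp Pcna and for the enzymes that make deoxynucleotides. Cyclins then drive Cdk1, and kinases such as Plk1 and the Aurora kinases, with motor and kinetochore proteins, carry the cell through mitosis until Cdc20 and Ube2c direct the destruction of cyclins. In the adult kidney most tubule and endothelial cells rest outside the cycle, whereas lymphocytes, dendritic cells and macrophages can divide in tissue.

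Promoter windows show how the G1/S and G2/M genes differ in sequence. RefSeq windows of build GRCm38.p6, from 250 bases before to 50 bases after the start, were held for 32 of the 40 genes. The E2F motif (TTTGGCGC, TTTCGCGC or TTTCCCGC, both strands) was present in 8 of 16 G1/S windows (50.0%) and in 1 of 15 G2/M windows (6.67%), against 1.91% of 27025 promoters. The CHR motif (TTTGAA, both strands), known from cell cycle genes read late in the cycle, was present in 11 of 15 G2/M windows (73.3%) and in 1 of 16 G1/S windows (6.25%), against 18.1% of all promoters. CCAAT, bound by NF-Y, was present in 14 of 15 G2/M windows (93.3%), in 10 of 16 G1/S windows (62.5%) and in 37.9% of all promoters. Matches of the same motif or of different motifs can overlap each other, and a match is a run of letters, not a shown binding site. The windows of the 3 G1/S and 3 G2/M genes with most UMIs among those that met the naming rule given with the processing and had a window are printed as examples of each group; Cenpe and Cenpf had more UMIs than Ube2c but did not meet that rule. Capitals mark the matches on either strand: E2F reads any of its 3 runs or the reverse complement, CHR reads TTTGAA or TTCAAA, and the CCAAT box reads CCAAT or ATTGG.
Pcna (chr2:132253131-132253430, minus strand): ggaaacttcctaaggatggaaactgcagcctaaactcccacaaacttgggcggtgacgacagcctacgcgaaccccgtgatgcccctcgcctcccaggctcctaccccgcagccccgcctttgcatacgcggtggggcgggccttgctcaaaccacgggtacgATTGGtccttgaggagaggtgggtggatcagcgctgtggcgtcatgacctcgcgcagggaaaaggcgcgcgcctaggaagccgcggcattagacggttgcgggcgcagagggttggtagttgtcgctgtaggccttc
Mcm6 (chr1:128359656-128359955, minus strand): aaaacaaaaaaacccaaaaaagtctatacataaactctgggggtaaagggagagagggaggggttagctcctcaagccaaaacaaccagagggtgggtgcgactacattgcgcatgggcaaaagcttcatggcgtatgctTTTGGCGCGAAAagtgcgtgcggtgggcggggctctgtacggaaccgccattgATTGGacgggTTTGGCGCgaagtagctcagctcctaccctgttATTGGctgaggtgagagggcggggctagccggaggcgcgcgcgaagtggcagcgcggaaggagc
Tyms (chr5:30073576-30073875, minus strand): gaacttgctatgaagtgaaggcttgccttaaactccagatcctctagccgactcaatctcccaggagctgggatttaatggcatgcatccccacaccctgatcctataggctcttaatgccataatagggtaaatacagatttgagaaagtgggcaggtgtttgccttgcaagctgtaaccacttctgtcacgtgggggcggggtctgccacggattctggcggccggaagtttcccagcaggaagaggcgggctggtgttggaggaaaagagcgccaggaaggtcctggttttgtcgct
Mki67 (chr7:135716330-135716629, minus strand): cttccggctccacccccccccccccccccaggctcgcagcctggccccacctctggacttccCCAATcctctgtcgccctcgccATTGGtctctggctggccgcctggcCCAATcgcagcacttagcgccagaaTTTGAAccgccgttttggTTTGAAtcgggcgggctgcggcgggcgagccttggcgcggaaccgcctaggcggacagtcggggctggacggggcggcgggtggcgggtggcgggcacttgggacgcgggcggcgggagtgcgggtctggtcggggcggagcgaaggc
Top2a (chr11:99024140-99024439, minus strand): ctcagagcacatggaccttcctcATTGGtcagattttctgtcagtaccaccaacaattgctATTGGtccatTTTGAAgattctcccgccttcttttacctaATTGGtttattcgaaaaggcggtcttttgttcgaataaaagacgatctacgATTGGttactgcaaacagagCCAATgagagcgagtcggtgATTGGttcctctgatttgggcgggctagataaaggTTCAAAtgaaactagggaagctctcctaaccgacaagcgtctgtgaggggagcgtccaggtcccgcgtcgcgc
Ube2c (chr2:164769679-164769978, plus strand): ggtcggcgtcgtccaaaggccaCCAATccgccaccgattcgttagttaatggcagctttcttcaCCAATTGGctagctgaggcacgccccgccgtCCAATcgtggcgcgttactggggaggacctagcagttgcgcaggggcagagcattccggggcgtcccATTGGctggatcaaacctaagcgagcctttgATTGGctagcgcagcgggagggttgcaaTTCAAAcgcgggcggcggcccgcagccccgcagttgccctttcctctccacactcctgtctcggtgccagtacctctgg
Mcm6 held 3 E2F matches, of which 2 overlap, and 2 CCAAT boxes, whereas the Pcna window held a CCAAT box alone and the Tyms window held none of the motifs. Mki67 and Top2a each held 2 CHR matches and Ube2c held 1, and the 3 G2/M windows carried 3, 6 and 6 CCAAT boxes.

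The 4 libraries held between 249881074 and 297947661 unique molecular identifiers (UMIs, each a counted transcript molecule), and 46738 cells passed the filters (10849 to 12076 a library). Clusters built without the 40 genes and without 100 other cell cycle genes were named from marker lists, so each population below is "like" the type it is called after. Macrophages numbered 815 and 725 cells under BPTES and 997 and 965 under DMSO, and lymphocytes, the sum of T, B, natural killer and innate lymphoid cells, 1417, 1428, 1447 and 1383. Dendritic cells numbered 352, 341, 634 and 461, endothelial cells 999, 584, 864 and 1144, and cells of the tubule segments 6625, 6080, 6425 and 5932, in the same order. Among the 46738 cells, 224 barcode sequences occurred in more than 1 library. The labels do not say that the libraries came from separate mice, so the p-values measure the spread between these libraries, which may be technical.

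The 40 genes gave 421424 UMIs in all. Macrophages held 22.2% of them from 7.49% of the cells, proximal tubule cells 21.7% from 46.6% of the cells, dendritic cells 17.5% from 3.83%, and T cells 15.7% from 7.8%. Hmgb2, a chromatin protein found in dividing and in some resting cells, gave 117524 UMIs, Stmn1, which regulates microtubules, 42630, and Pcna, the polymerase clamp, 31927. Mki67, the standard marker of dividing cells, gave 24212 and Top2a, the topoisomerase that untangles chromosomes, 19719. The least counted member was Ccne1, with 1120 UMIs. A small number of cells carried a large part: 479 cells had at least 100 UMIs of the list, a threshold chosen after seeing the data, and they numbered 67 and 65 under BPTES and 187 and 160 under DMSO.

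Summed over the list, cell cycle transcripts were lower under BPTES in macrophages, lymphocytes and tubule cells without overlap between the groups, and overlapped in dendritic cells and endothelium. In macrophages the 40 genes stood at 662 and 1110 CPM (UMIs per 1000000 UMIs of the population) under BPTES and at 1620 and 1410 CPM under DMSO. The DMSO mean, 1510 ± 151 (SD, n = 2), was 1.7 times the BPTES mean, 888 ± 320 (SD, n = 2). Lymphocytes gave 980 and 1100 CPM under BPTES and 1270 and 1380 under DMSO. Dendritic cells gave 1070 and 979 against 1080 and 993, with the groups interleaved. Endothelium gave 475 and 316 against 339 and 352, with the highest and the lowest value both under BPTES. Tubule cells had the lowest levels, 184 and 149 against 268 and 215. These sums are descriptions over chosen genes and carry no test, and in them fewer dividing cells and fewer transcripts per cell cannot be told apart.

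**Figure D1:**
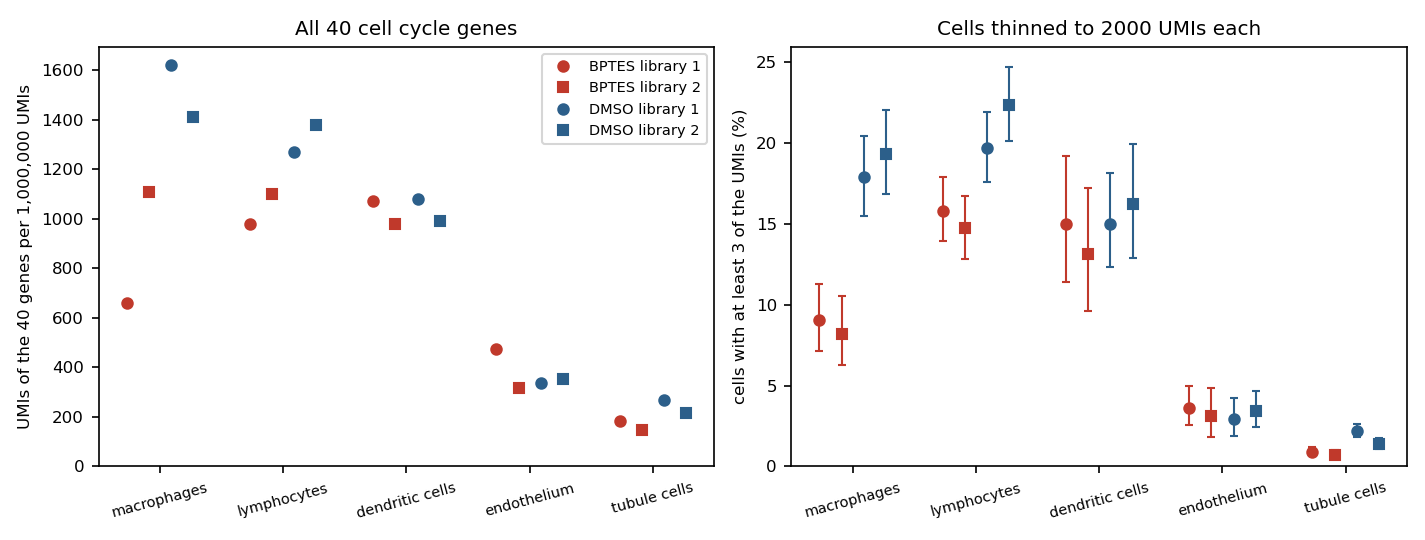
Left, CPM of the 40 genes summed (y axis) in each library for 5 cell populations (x axis); right, the percentage of cells with at least 3 UMIs of the list after each cell was thinned to 2000 UMIs, with exact Clopper-Pearson 95% intervals. In macrophages the BPTES libraries sit at 662 and 1110 on the left and at 9.07% and 8.19% on the right, below the DMSO libraries at 1620 and 1410 and at 17.9% and 19.3%.

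The share of cells with at least 3 UMIs of the list was near its ceiling in the deep leukocyte populations. It was 77.3% and 74.2% of macrophages under BPTES and 79.1% and 83.0% under DMSO, with median depths of 14676, 14306, 17003 and 20321 UMIs per cell. Depth thus moved with the group in macrophages, so cells were also thinned to 2000 UMIs each, which left out 32, 29, 45 and 63 shallower macrophages in that order. After thinning, 9.07% (exact 95% interval 7.15 to 11.3) and 8.19% (6.26 to 10.5) of macrophages under BPTES carried at least 3 UMIs, against 17.9% (15.5 to 20.4) and 19.3% (16.8 to 22.0) under DMSO; the intervals cover counting error only. The thinned share of lymphocytes was 15.8% and 14.7% against 19.7% and 22.3%, and that of dendritic cells 15% and 13.1% against 15% and 16.2%. Endothelium gave 3.6% and 3.1% against 2.91% and 3.42%, overlapping between the groups. Tubule cells gave 0.92% and 0.73% against 2.2% and 1.41%, the lowest shares of the 5 populations. In macrophages, 185 to 227 cells a library lay within 1 UMI of the unthinned threshold of 3.

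Free RNA can put UMIs into droplets of cells that do not express a gene, so the shares were set beside those of neutrophils, which no longer divide. A neutrophil cluster led by S100a9, S100a8 and Retnlg held 210, 203, 228 and 293 cells at median depths of 8745, 9104, 9019 and 9192 UMIs. After thinning, 20.9%, 20.4%, 30.8% and 12.3% of these cells carried at least 3 list UMIs, and Stmn1 with Hmgb2 gave 739, 670, 943 and 482 of their 779, 712, 989 and 564 list CPM. The thinned list shares of the 5 populations thus lay within or under the range of the neutrophils and are not read as shares of dividing cells. Without Stmn1 and Hmgb2, a setting added after seeing the data, the thinned share was 0% in the neutrophils of each library, which allows up to 1.46%, 1.53%, 1.32% and 1.05%. On that measure macrophages gave 4.21% and 4.31% under BPTES against 13% and 12.2% under DMSO, lymphocytes 6.39% and 5.37% against 8.92% and 9.52%, and dendritic cells 12.7% and 9.12% against 11.6% and 11.4%. Endothelium gave 2.2% and 1.21% against 1.63% and 2.28%, and its value in BPTES library 2 lay under the limit of 1.53% that the neutrophils allow there. Tubule cells, at 0.247% and 0.303% against 1.23% and 0.548%, stayed under the limit of their library in each case. That limit follows from the number of neutrophils counted. It cannot place shares this low at or above background, and they are not read as either. Tubule cells with at least 100 list UMIs, a number not matched for depth, were 5, 3, 27 and 12.

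In macrophages, 13 of the 40 genes fell under BPTES and none rose, all 13 of them genes of DNA replication or its onset. Called here means an adjusted p under 0.05 in edgeR's quasi-likelihood test with Benjamini-Hochberg adjustment over all 14070 genes tested, of which 5.08% were called and 3.4% were called lower and 1.68% higher, so the members' share (13 of 40) lay above the background. All 40 members had a negative log2 fold change, with a median of -0.93 against -0.01 over all genes, and 29 of 40 had both BPTES libraries below both DMSO libraries, against 30.6% of all genes. Without BPTES library 1 the median was -0.49, with 35 of 40 negative, and without BPTES library 2 it was -1.73. Of the 19 G1/S genes 13 were called, and of the 19 G2/M genes 0, with 2 of these lower at an unadjusted p under 0.05, against 14.3% of all genes. The 0 for G2/M genes depends on the choice of cells and libraries: 13 of 19 were called with each cell assigned by its own markers, beside 17 of the G1/S genes. It was 1 to 3 with DESeq2, without the low-count filter, with doublets kept or without the cluster led by members. The G2/M median of -0.8 became -0.11 without BPTES library 1, with 14 of 19 negative, and -1.86 without BPTES library 2. The G1/S median of -1.08 became -0.9 and -1.14, with all 19 negative in both. Without BPTES library 2 the G2/M genes thus had the lower median, with all 19 negative, so the limit to replication genes rests on that library. Values for single genes are TMM-normalised CPM, in the order BPTES library 1, BPTES library 2, DMSO library 1, DMSO library 2.

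Among the genes of origin licensing, 8 of 9 fell. Cdc6 (ENSMUSG00000017499), which loads the helicase, stood at 1.72, 1.57, 6.22 and 7.29, a log2 fold change of -2.03 (SE 0.23, edgeR adjusted p = 0.0144). It no longer passed with doublets kept (-0.78, edgeR adjusted p = 0.0674). Gins2 (ENSMUSG00000031821), a subunit of the complex that activates the helicase, stood at 5.17, 5.03, 12.6 and 13.7 (log2 fold change -1.37, SE 0.15, edgeR adjusted p = 0.0144). The 2 BPTES libraries were almost alike for both genes, far below either DMSO library.
All 6 subunits of the MCM helicase ring fell. Mcm3 (ENSMUSG00000041859) fell from 41.8 and 45.9 under DMSO to 22.8 and 17.9 under BPTES (log2 fold change -1.1, SE 0.13, edgeR adjusted p = 0.0161). Mcm2 (ENSMUSG00000002870) stood at 8.16, 7.55, 16.8 and 16.3, and Mcm5 (ENSMUSG00000005410) at 10.8, 12.9, 24.9 and 23.2, with log2 fold changes of -1.07 and -1.02. The other subunits moved less: Mcm7 (ENSMUSG00000029730) by -0.68, Mcm4 (ENSMUSG00000022673) by -0.6 and Mcm6 (ENSMUSG00000026355), whose E2F matches are printed above, by -0.59, from 45.7 and 51.7 to 33.0 and 31.8. The SE of these 5 ranged from 0.09 to 0.12 and their edgeR adjusted p from 0.0145 to 0.032. Cdt1, the partner of Cdc6 in helicase loading, did not pass, at 7.91, 9.04, 12.2 and 12.5 (log2 fold change -0.55, edgeR adjusted p = 0.0683).

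Of the 8 genes of the fork and of nucleotide supply, 4 fell. Tk1 (ENSMUSG00000025574), the thymidine kinase that salvages thymidine for DNA synthesis, stood at 5.74, 7.94, 27.5 and 26.9. Its log2 fold change of -2.0 (SE 0.15, edgeR adjusted p = 0.00631) had the smallest p of the 40 genes. Dtl (ENSMUSG00000037474), which directs the destruction of Cdt1 once replication starts, stood at 3.38, 3.93, 13.1 and 12.2 (log2 fold change -1.8, SE 0.17, edgeR adjusted p = 0.00889). Uhrf1 (ENSMUSG00000001228), needed to copy DNA methylation to the new strand, stood at 4.85, 7.55, 20.8 and 18.4, and Hells (ENSMUSG00000025001), a chromatin remodeller, at 10.3, 10.9, 24.1 and 26.4, with log2 fold changes of -1.67 and -1.25 (edgeR adjusted p = 0.0206 and 0.0081, SE 0.21 and 0.11). In all 4 genes both BPTES libraries lay well below both DMSO libraries. The rest did not pass. Pcna stood at 76.0, 77.5, 92.2 and 91.9, a small difference with little spread (log2 fold change -0.26, edgeR adjusted p = 0.0708). Rrm1 and Rrm2, the subunits of ribonucleotide reductase, had log2 fold changes of -0.7 and -1.57 and edgeR adjusted p of 0.0683 and 0.23, and Tyms, which makes thymidylate, -0.65 and 0.127.

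Of the cyclins, Ccne2 (ENSMUSG00000028212), a cyclin E of the G1/S step, fell from 4.67 and 5.51 to 0.765 and 1.49 (log2 fold change -2.2, SE 0.33, edgeR adjusted p = 0.0241). Ccne2 no longer passed with doublets kept (-0.59, edgeR adjusted p = 0.172) or without the cluster led by members (-1.69, edgeR adjusted p = 0.0612). Its sister gene Ccne1 stood at 1.02, 2.28, 3.45 and 3.39 and did not pass (edgeR adjusted p = 0.131). Ccna2, Ccnb1 and Ccnb2, the cyclins of S phase and mitosis, overlapped between the groups. Cdk1, the kinase they drive, stood at 5.17, 14.2, 20.3 and 17.5 (log2 fold change -0.99, SE 0.54, edgeR adjusted p = 0.362).

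The 2 BPTES libraries differed from each other in the genes of mitosis, and 0 of the 13 genes of that group passed. Cenpf, a kinetochore protein, stood at 8.93 in BPTES library 1 and at 35.5 in BPTES library 2, against 38.2 and 29.5 under DMSO. Ube2c, the ubiquitin-conjugating enzyme of mitotic exit, stood at 8.42 and 35.1 against 32.5 and 27.2. In both genes BPTES library 1 was low and BPTES library 2 lay within the range of the DMSO libraries or above it. Aurkb, a kinase of chromosome segregation, came nearest to the threshold, at 3.57, 6.68, 11.1 and 10.3 (log2 fold change -1.08, SE 0.29, edgeR adjusted p = 0.0868). Of the markers, Mki67 stood at 37.9, 102, 159 and 120 and Top2a at 26.5, 89.5, 127 and 103, with SE of 0.61 and 0.74 on log2 fold changes of -1.01 and -1.0, neither past the threshold. In both, BPTES library 1 was far below the other libraries and BPTES library 2 lay below both DMSO libraries. Stmn1 stood at 26.8, 58.5, 128 and 103 (edgeR adjusted p = 0.208) and Hmgb2 at 206, 311, 365 and 322 (edgeR adjusted p = 0.341). Summed, the 19 G1/S genes gave 264 and 281 CPM under BPTES against 481 and 476 under DMSO, and the 19 G2/M genes 161 and 471 against 645 and 507.

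**Figure D2:**
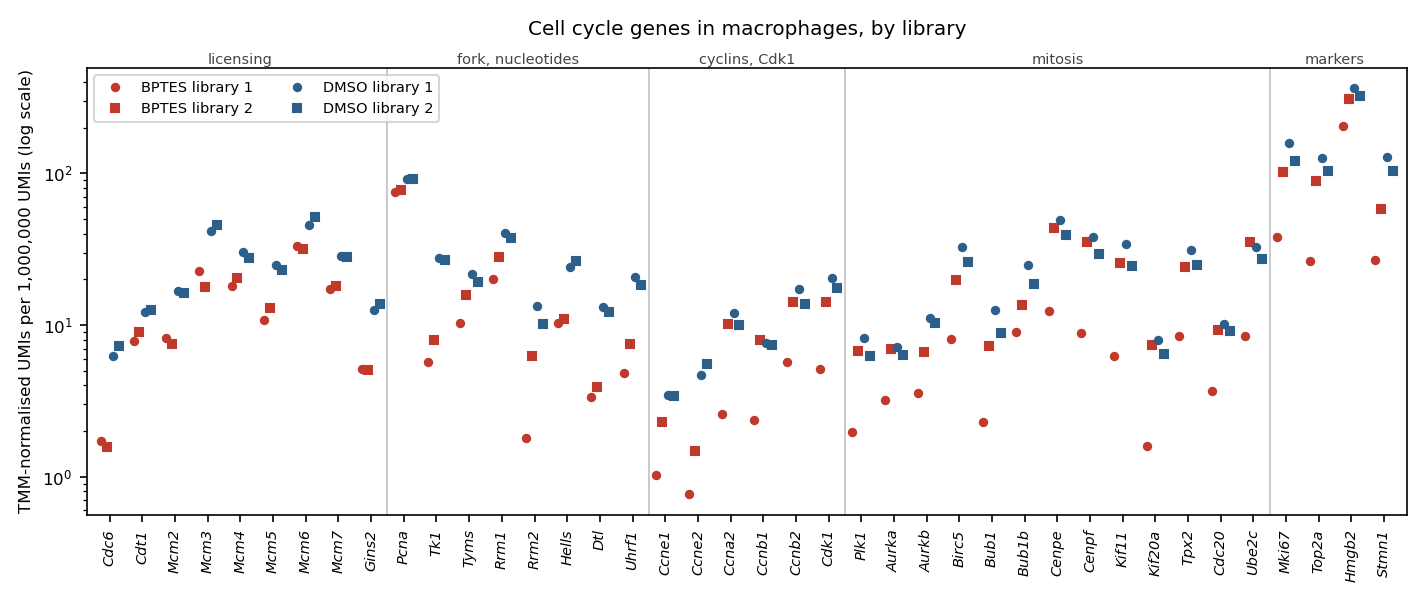
TMM-normalised CPM (y axis, log scale) of each of the 40 genes (x axis, ordered by role) in macrophages; each point is 1 library, red for BPTES and blue for DMSO, circles for library 1 and squares for library 2. The licensing genes show both BPTES libraries together below the DMSO libraries, as for Cdc6 at 1.72 and 1.57 against 6.22 and 7.29, whereas for Cenpf BPTES library 1, at 8.93, sits below the other libraries at 35.5, 38.2 and 29.5.

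The share of macrophages with at least 3 UMIs of the G2/M genes was lower in both BPTES libraries, also at matched depth. Such cells, a measure added after seeing the data, made up 9.94% and 9.24% of macrophages under BPTES and 20.3% and 22.1% under DMSO, at the unequal depths given above. After thinning to 2000 UMIs a cell, they made up 1.28% and 2.16% against 6.93% and 5.21%. In the neutrophils the unthinned share was 0.952%, 0.985%, 1.32% and 1.71%, and the thinned share 0% with the limits given above. The value of BPTES library 1 is therefore not shown to be above background after thinning. Cells with at least 100 UMIs of the list, a number not matched for depth, were 9, 20, 69 and 63. They held 27.3% of the macrophage list UMIs in BPTES library 1, and 64.0%, 68.4% and 63.5% in the other libraries in order. In the macrophages left after those cells were set aside, the list gave 497 and 434 CPM under BPTES and 601 and 598 under DMSO. One cluster of 124 cells, led by Mki67, Top2a, Cenpf, Ube2c, Cenpe and Birc5 together with histone genes, was named as macrophage and numbered 7, 17, 57 and 43 cells; by their own markers 87 of its cells were macrophages and 34 dendritic cells. Without that cluster, also a step added after seeing the data, 11 members were called in macrophages, 8 of them among the 13 above, and 472 of 13813 genes in all. Within the main macrophage cluster, led by C1qa, C1qc and C1qb, the list gave 426 and 375 CPM under BPTES against 672 and 618 under DMSO. Another cluster gave 630 and 613 against 702 and 921, and a smaller one, led by Aif1 and Pf4, overlapped, at 476 and 690 against 416 and 1170.

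Related genes outside the list were read from the same fit. Of 36 other replication genes, 18 fell in macrophages and none rose, against 3.4% and 1.68% of all genes. Of 40 other mitosis genes 0 passed, with 10 lower at an unadjusted p under 0.05, against 14.3% of all genes, but all 40 had negative log2 fold changes, with a median of -0.89 against -0.73 for the other replication genes, and 31 were lower without overlap, against 30.6% of all genes. Mcm10, which helps open origins, stood at 2.17, 2.04, 10.7 and 9.03 (log2 fold change -2.22, SE 0.2, edgeR adjusted p = 0.0081). Lig1, which seals the new strand, had a log2 fold change of -0.73 and Chaf1a, which lays histones on it, of -1.42, with edgeR adjusted p of 0.0144 and 0.0159. Of 24 genes of G1 and transcriptional control, 6 fell and 1 rose. E2f1, the factor whose motif is counted above, stood at 9.12, 7.0, 15.7 and 18.3 (log2 fold change -1.07 with SE 0.16 and an edgeR adjusted p of 0.0253), and the checkpoint kinase gene Chek1 had a log2 fold change of -1.37 (edgeR adjusted p = 0.0343). Ccnd3, a D-type cyclin of G1, was the gene that rose, from 219 and 211 under DMSO to 377 and 506 under BPTES (log2 fold change 1.04, SE 0.15, edgeR adjusted p = 0.0317). The macrophage count depends on the BPTES libraries: 4 members were called without BPTES library 1 (Mcm3, Dtl, Tk1 and Hells), among 56 of 14823 genes, and 22 without BPTES library 2, among 135 of 14912. With each cell assigned by its own markers the number of members called was 31, among 1443 of 14465 genes. With predicted doublets kept it was 10, among 733 of 15210, with a median log2 fold change of -0.36 in place of -0.93. Of the members called in the main fit, 7 stayed called with doublets kept. The 6 lost were Mcm3, Mcm6, Mcm7, Cdc6, Ccne2 and Tk1 (Tk1 -1.1, edgeR adjusted p = 0.0631).

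In monocytes 27 members passed the filter on low counts, with a median log2 fold change of -0.69 against -0.02 over all genes. At an unadjusted p under 0.05, 12 were lower and 0 higher, against 10.1% and 9.93% of all genes. Without overlap 17 were lower and 2 higher, against 27.4% and 25.6% of all genes. Only 1 was called, Tk1, against 0.747% of 12049 genes. It stood at 1.17 and 0.849 under BPTES and at 10.8 and 7.03 under DMSO, with a log2 fold change of -3.15 (SE 0.38) and an edgeR adjusted p of 0.0335, the gene with the smallest p in macrophages too. It no longer passed without BPTES library 1 (edgeR adjusted p = 0.0854) and without BPTES library 2 (edgeR adjusted p = 0.19). The call was also lost with a mitochondrial limit of 25% (log2 fold change -1.49, edgeR adjusted p = 0.0532), at Leiden resolution 2 (-2.08 and 0.121) and with cells assigned by their own markers (-1.19 and 0.283).

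In lymphocytes no member passed the test. The test called 0 of 14183 genes (0% background), so a count of 0 members says little here; 17 of the 40 members were lower at an unadjusted p under 0.05 and 0 higher, against 10.1% of all genes lower and 8.45% higher, and 24 had both BPTES libraries below both DMSO libraries, against 27.8%. DESeq2 called 4 members among 439 of the 14183 genes. The median log2 fold change of the members was -0.43, against -0.01 over all genes. Stmn1 had the smallest p, at 41.7, 41.3, 59.8 and 68.7 (log2 fold change -0.63, SE 0.09, edgeR adjusted p = 0.0912). Top2a stood at 56.8, 69.3, 98.9 and 101 (log2 fold change -0.67, SE 0.1, edgeR adjusted p = 0.0989). Tk1 stood at 8.49, 6.76, 14.4 and 14.9, the largest difference among members without overlap (log2 fold change -0.94, edgeR adjusted p = 0.107). In each of these genes both BPTES libraries lay below both DMSO libraries. Fewer members were lower at an unadjusted p under 0.05 without DMSO library 2 or without BPTES library 1. In the latter case the median of the 19 G2/M genes was 0.01 in place of -0.44, with 8 negative. The G1/S median was then -0.45 in place of -0.39. Bub1, a spindle checkpoint kinase, and Cdc6 followed, with log2 fold changes of -0.75 and -0.71 and edgeR adjusted p of 0.2 and 0.263.
Genes of the helicase ring differed less than Tk1. Mcm3 stood at 27.7, 23.9, 30.5 and 36.9 (log2 fold change -0.39, edgeR adjusted p = 0.194). Mcm4 stood at 40.1, 41.3, 41.7 and 44.2 and Mcm7 at 28.2, 25.8, 23.8 and 27.6, while Mcm6 stood at 54.9, 57.0, 60.6 and 74.2 (log2 fold change -0.27, edgeR adjusted p = 0.253). Pcna stood at 80.1, 78.8, 81.8 and 86.5, Mki67 at 53.1, 71.7, 85.0 and 107 (edgeR adjusted p = 0.225), and Hmgb2 at 318, 376, 383 and 435 (edgeR adjusted p = 0.299). Cells with at least 3 UMIs of the G2/M genes made up 7.76% and 6.58% of lymphocytes under BPTES and 13% and 17.6% under DMSO, at median depths of 11668, 11197.5, 11422 and 12269 UMIs, and after thinning 1.07% and 1.04%, which is within the limit that the neutrophils allow, against 2.06% and 2.44%.

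The makeup of the lymphocytes moved with the group: 790 of 1417 and 840 of 1428 cells were T cells under BPTES, and 984 of 1447 and 1030 of 1383 under DMSO. T cells held more list CPM than B cells in every library, and the part of this shift in the lymphocyte values was not tested. The median log2 fold change of the members was -0.29 in T cells alone, against -0.43 in all lymphocytes; this order turned at the 25% mitochondrial limit (-0.46 against -0.45) and without the clusters led by members (-0.63 against -0.53). T cells carried most list UMIs, at 1240 and 1330 CPM under BPTES against 1510 and 1670 under DMSO, and no member passed in T cells (0 of 40, with 0.123% of 12982 genes called and 11 members lower at an unadjusted p under 0.05, against 7.76% of all genes). The number lower at that p and the number called both moved when 1 library was left out. A cluster of 44 T cells led by Top2a and Mki67 numbered 6, 10, 11 and 17 cells, and without it 3 members were called in T cells among 29 of 12869 genes. In B cells 26 members passed the filter on low counts, with a median log2 fold change of -0.64 against -0.02 over all genes. At an unadjusted p under 0.05, 10 were lower and 0 higher, against 11% and 7.52% of all genes. Only 1 was called, Top2a (ENSMUSG00000020914), against 1.26% of the 10912 genes tested. It stood at 15 and 7.8 under BPTES and at 43.4 and 43.5 under DMSO, with a log2 fold change of -1.9 (SE 0.27) and an edgeR adjusted p of 0.0245. In DMSO library 2 a single B cell held 115 of the 189 Top2a UMIs. A small cluster named as B cell, which also expressed the macrophage chemokine genes Ccl8 and Ccl2, numbered 1 and 5 cells under BPTES and 19 and 45 under DMSO, and its part in the result was not tested. The call was lost without BPTES library 1 (log2 fold change -2.44, edgeR adjusted p = 0.15), without BPTES library 2 (-1.53 and 0.0806) and with cell cycle genes used in the clustering (log2 fold change -1.16, edgeR adjusted p = 0.288).

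The change under BPTES was then compared between macrophages and lymphocytes of the same libraries. In a test of the interaction, 0 of the 40 members passed, with 4 of 15006 genes called (0.0267%). At an unadjusted p under 0.05, 18 members changed by more in the negative direction in macrophages, against 5.54% of all genes, and 39 of the 40 interaction values were negative, with a median of -0.55. Without BPTES library 1 the median was -0.32, with 34 of 40 negative, and without BPTES library 2 it was -0.89. With predicted doublets kept the direction turned: 11 of 40 values were negative and the median was 0.41, as the macrophage median moved to -0.36 and the lymphocyte median to -0.94. The cell types among the lymphocytes also moved with the group, as given above; their part in the interaction was not tested. The smallest p belonged to Mcm3, whose log2 fold change was lower in macrophages by 0.71 (-0.71, SE 0.11, edgeR adjusted p = 0.116), followed by Hells (-0.79, SE 0.14, edgeR adjusted p = 0.123) and Mcm7 (-0.74, SE 0.14, edgeR adjusted p = 0.127). No member was therefore shown to differ between these populations at the threshold.

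In dendritic cells no member passed, although 5.1% of the 13444 genes tested did. At an unadjusted p under 0.05, 1 member was lower (Rrm2) and 0 higher, against 12.2% and 11.8% of all genes, and 4 had groups that did not overlap, against 28.2% of all genes lower without overlap. The median log2 fold change of the members was -0.04. More members were lower at that p without BPTES library 1, where the median was -0.15. The median was 0.07 without BPTES library 2. More members were also lower with a mitochondrial limit of 25%, at Leiden resolution 2 and with doublets kept. In each of these 35 of 40 were negative with a median of -0.22. Hmgb2 stood at 261, 279, 277 and 262 (log2 fold change 0.0, SE 0.06), Mki67 at 72.4, 80.7, 74.6 and 67.0 (0.11, SE 0.08) and Top2a at 61.1, 53.6, 56.6 and 56.7 (0.02, SE 0.08). Pcna stood at 77.0, 68.9, 68.3 and 70.8 and Stmn1 at 74.8, 58.2, 77.1 and 70.0. These 5 genes overlapped between the groups. Rrm2, a subunit of ribonucleotide reductase, differed most among the members without overlap, at 7.17, 6.69, 9.69 and 9.0 (log2 fold change -0.43, SE 0.15, edgeR adjusted p = 0.131). It was followed by Bub1 (-0.35, SE 0.22, edgeR adjusted p = 0.395) and by Mcm3 (-0.21, SE 0.09, edgeR adjusted p = 0.219).
Cells with at least 3 UMIs of the G2/M genes were frequent, at 34.4% and 33.4% under BPTES and 35.3% and 39.9% under DMSO, with median depths of 33332.5, 33928, 34296 and 39559 UMIs, and after thinning made up 5.19% and 3.34% against 4.27% and 3.28%. The population joined clusters with different levels. A cluster led by Xcr1 and Clec9a gave 1490, 1640, 2370 and 1850 CPM of the list, and a larger one led by Cd209a and Clec10a gave 834, 555, 764 and 651. The former took 32.7% and 35.2% of the dendritic cells under BPTES and 18.5% and 26.7% under DMSO. The makeup of the population thus moved with the group, and its part in the result was not tested. In the cluster led by Mki67 and Top2a, counted as macrophage, 34 cells were dendritic by their own markers and are missing here. With all cells assigned by their own markers the G1/S and G2/M medians were -0.2 and -0.08, in place of -0.09 and 0.03. Outside the list, 1 of 40 other mitosis genes and 2 of 24 genes of G1 and transcriptional control rose, against 2.35% of all genes. Kif23, a motor protein of cell division, had a log2 fold change of 0.61 (SE 0.12, edgeR adjusted p = 0.0351), and the other 2 were Ccnd3 (0.74, SE 0.1, edgeR adjusted p = 0.0222) and Myc (0.74, SE 0.1, edgeR adjusted p = 0.0139), and 0 of the 36 other replication genes passed.

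In endothelium 31 of the 40 members passed the filter on low counts, and 1 of them rose. The background was 0.765% of 13724 genes called and 0.372% called higher. The gene was Kif20a (ENSMUSG00000003779), a kinesin of cell separation, at 3.07 and 1.94 under BPTES against 0.271 and 0.436 under DMSO, with a log2 fold change of 2.78 (SE 0.51) and an edgeR adjusted p of 0.0325. In all, 6 of the 31 members were higher without overlap, against 21.2% of all genes. Of these, Kif20a and Aurka (2.21, 1.19, 0.543 and 0.561) passed the filter only through the BPTES libraries, where they were high. The direction of these genes is therefore not independent of the filter. Kif20a rested on 39, 13, 3 and 7 UMIs in 12, 6, 3 and 7 cells, and single cells held 18 of the 39 and 8 of the 13. The call was lost without BPTES library 1, DMSO library 1 or DMSO library 2, with log2 fold changes of 2.37, 2.52 and 3.19. It was also lost with a mitochondrial limit of 25%, doublets kept, a replicate block or cells assigned by their own markers (edgeR adjusted p 0.0538 to 0.283). There the log2 fold changes were 2.27, 2.37, 2.72 and 1.21.
The G2/M genes as a whole gave 124 and 26.9 CPM under BPTES and 21.2 and 20.3 under DMSO, while the share of cells with at least 3 of these UMIs was 0.501% and 0.514% under BPTES and 1.39% and 0.962% under DMSO, and 0.2% and 0.172% against 0.349% and 0.0876% after thinning. These shares lie at or near those of the neutrophils (0.952% to 1.71%, and 0% thinned) and are not read as a difference. Endothelial cells with at least 100 UMIs of the list numbered 2, 1, 1 and 3, and 1 cell of BPTES library 1 held 1179 list UMIs, 19.8% of the total of that library. Single cells held 765 of the 1562 G2/M UMIs of BPTES library 1 and 118 of the 184 of BPTES library 2. Of those 1562, an endothelial cluster of 114 cells held 780, with 1 cell at 3 or more. Another cluster, of 148 cells, held 692, with 2 such cells. Mki67 (29.0, 6.41, 3.44 and 3.3) and the spindle factor Tpx2 (6.38, 1.34, 0.905 and 1.18) were likewise highest in BPTES library 1, with BPTES library 2 next, and did not pass, with log2 fold changes of 2.47 and 1.96 and edgeR adjusted p of 0.58 and 0.398, and 1 cell of BPTES library 1 held 201 of its 368 Mki67 UMIs. The replication genes differed among themselves. Mcm2 (5.83, 5.96, 8.23 and 6.23), Cdt1 (2.28, 1.34, 2.89 and 2.8) and Hells (4.1, 4.02, 5.16 and 7.41) were the 3 members lower without overlap, against 21.4% of all genes, and none of them passed (edgeR adjusted p of Hells = 0.394). Pcna, at 54.4, 55.6, 51.6 and 54.9, Mcm3, at 34.3, 38.0, 33.9 and 35.8, and Rrm1, at 28.8, 24.1, 27.6 and 26.5, overlapped. Tyms stood at 23.8, 27.6, 26.1 and 36.0 and Hmgb2 at 77.9, 57.8, 75.2 and 71.3, both overlapping between the groups. One related gene rose, the chromatin factor Atad2 (log2 fold change 0.47, SE 0.09, edgeR adjusted p = 0.0499).

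In tubule cells all 40 members had negative log2 fold changes and none passed, in a test that called 0 of 17375 genes (0% background). At an unadjusted p under 0.05, 24 members were lower and 0 higher, against 7.2% of all genes lower and 6.95% higher, and 35 had both BPTES libraries below both DMSO libraries, against 26% of all genes; DESeq2 called 5 members among 511 of the 17375 genes. The members' median was -0.87 against -0.04 over all genes, and it was -1.22 for the G2/M genes and -0.35 for the G1/S genes. Cdk1 (ENSMUSG00000019942) stood at 0.375, 0.277, 2.03 and 1.13 (log2 fold change -2.26, SE 0.38, edgeR adjusted p = 0.207). Ube2c stood at 0.493, 0.425, 4.35 and 0.878 (log2 fold change -2.5 with SE 0.81 and an edgeR adjusted p of 0.316) and Aurkb at 0.125, 0.0198, 0.446 and 0.274 (log2 fold change -2.21, SE 0.7, edgeR adjusted p = 0.305). DMSO library 1 was the highest in all 3 genes. The genes with most UMIs differed less: Stmn1 stood at 43.3, 36.5, 62.3 and 48.4, Hmgb2 at 44.2, 35.5, 54.8 and 46.8, Tyms at 17.2, 14.8, 18.3 and 15.3, Pcna at 14.7, 14.5, 16.4 and 14.9 and Mcm7 at 10.1, 9.07, 11.2 and 10.3. Without DMSO library 2, 21 members were called among 790 of 17792 genes, and without DMSO library 1, 8 among 2131 of 17990. Fewer members were lower at an unadjusted p under 0.05 without either BPTES library. The G1/S and G2/M medians were -0.4 and -1.64 without BPTES library 1, and -0.32 and -1.15 without BPTES library 2.

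Proximal tubule cells, the majority of the tubule cells, passed the threshold for 2 of 40 members, both lower, against 0.994% of 16092 genes. Cdk1 stood there at 0.391, 0.257, 2.13 and 1.31 (log2 fold change -2.39 with SE 0.33 and an edgeR adjusted p of 0.0258) and Top2a at 1.52, 1.08, 4.34 and 3.28 (log2 fold change -1.54, SE 0.22, edgeR adjusted p = 0.0277). Cdk1 was detected in 21, 10, 59 and 32 proximal tubule cells. These transcripts lay in part in one cluster of 530 proximal tubule cells led by C3, the fibrinogen genes, Sox9, Spp1 and Stmn1, which numbered 48 and 33 cells under BPTES and 255 and 194 under DMSO and gave 677, 1330, 1640 and 656 CPM of the list. Without the cells of that cluster neither gene passed (Cdk1 -1.23, edgeR adjusted p = 0.234, and Top2a -0.86, edgeR adjusted p = 0.383), and of the tubule members 4 rather than 24 were lower at an unadjusted p under 0.05. Without it the median of the tubule members was -0.37, and that of their G2/M genes -0.65 with 0 of 19 lower at that p in place of 15; with cells assigned by their own markers these medians were -0.6 and -0.77. Both calls were also lost without BPTES library 2 (edgeR adjusted p = 0.138 and 0.117) and with cells assigned by their own markers (Cdk1 -1.83, edgeR adjusted p = 0.05, and Top2a -0.81, edgeR adjusted p = 0.229).

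**Figure D3:**
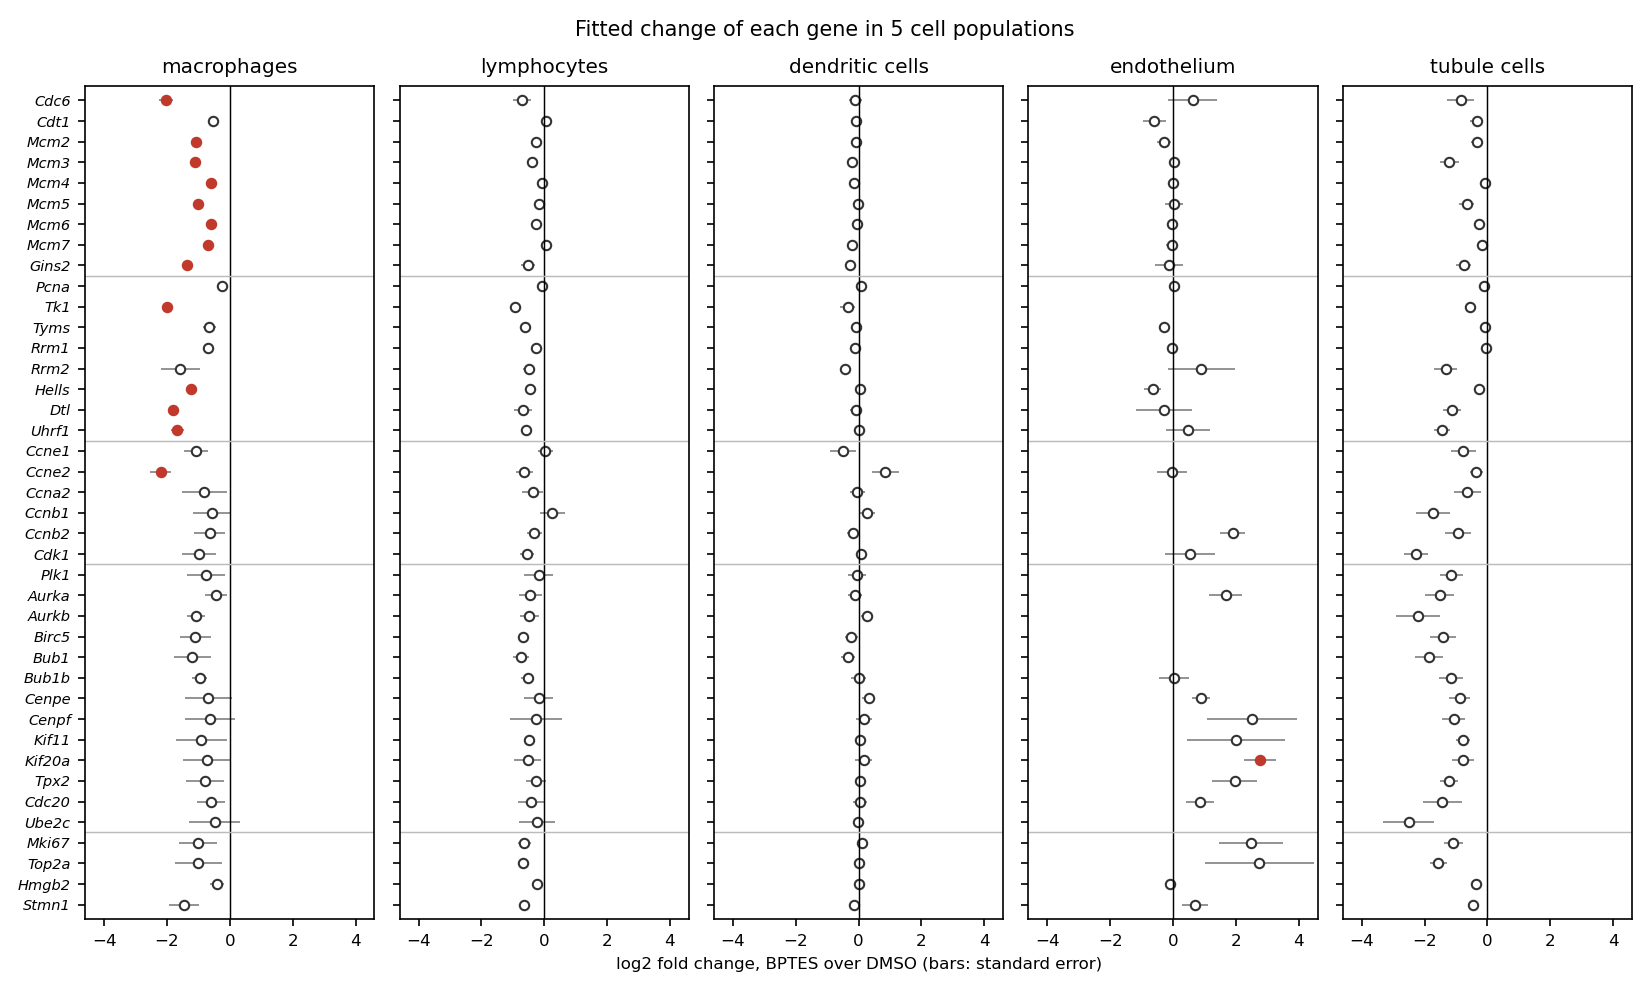
Log2 fold change, BPTES over DMSO, with its standard error (x axis) for each gene (y axis, ordered by role) in 5 populations; filled red points passed the edgeR threshold, open points did not, and genes under the count filter are left blank. The 13 filled points of macrophages lie in the licensing, fork and cyclin groups, dendritic cells center on 0 with a median of -0.04, and in endothelium the filled point is Kif20a at 2.78.

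**Figure D4:**
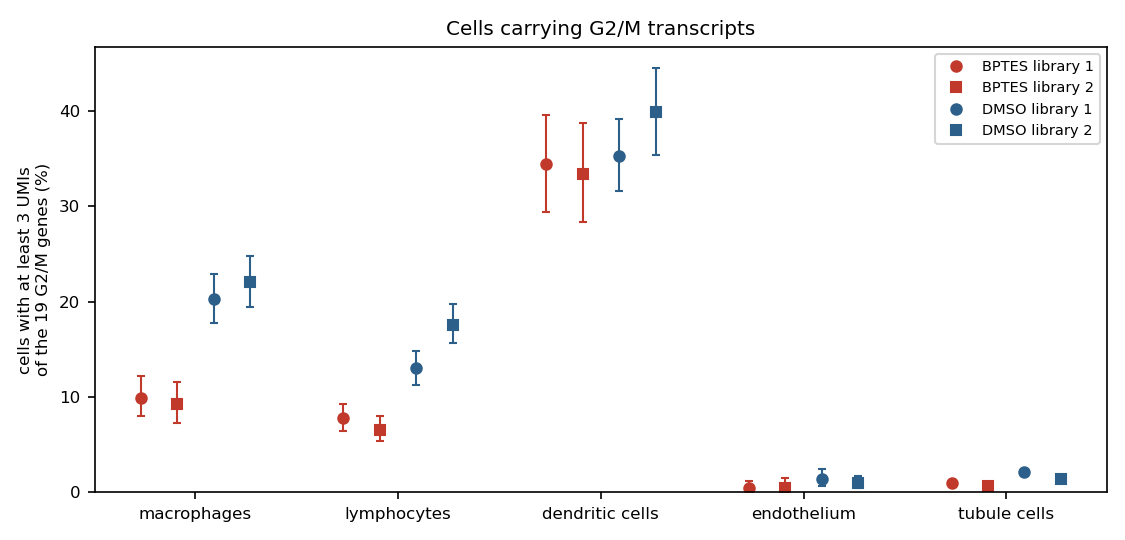
Percentage of cells with at least 3 UMIs of the 19 G2/M genes (y axis) by population (x axis) and library, with exact Clopper-Pearson 95% intervals that cover counting error only; cells were not thinned. At unequal depths dendritic cells, the deeper population, are highest, at 33.4% to 39.9%. In macrophages the BPTES libraries at 9.94% and 9.24% lie below the DMSO libraries at 20.3% and 22.1%. Neutrophils, not drawn and shallower than both, gave 0.952% to 1.71%. The order changes after thinning: under DMSO the thinned shares given in the text are higher in macrophages than in dendritic cells.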

How the data were processed

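The authors deposited 10x count matrices of raw UMI counts per gene and cell, whose making with Cell Ranger 8.0.1 on mm10 is taken from the submitters' processing notes; the annotation is not given in the sources used here. Of 76278 barcodes, those with at least 500 UMIs, 300 genes and at most 50% mitochondrial UMIs were kept, and the highest Scrublet scores (0.4% per 1000 barcodes) were removed as doublets. Counts were scaled to 10000 per cell and clustered with scanpy 1.11.5 (3000 variable genes, 40 components, 15 neighbours, Leiden resolution 1) without the 40 genes, 100 other cell cycle genes and mitochondrial genes. Of 51 clusters, 46 were named from 159 markers, and 5, with 7.51% of cells, stayed unnamed. UMIs were summed per library and population and tested over all genes with edgeR 4.0.16 (R 4.3.3; TMM, filterByExpr, quasi-likelihood, robust), after checks on simulated data; DESeq2 1.42.0 was an alternative.

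The genes and lists were chosen with earlier results of these data known. Named were, per population, every gene past the threshold, the 5 with most UMIs, the 3 with the largest fold change without overlap, and up to 3 called genes of each related list; any others were chosen after their values were seen. The closing section gives the effect of other tests, filters, clusterings and left-out libraries.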

Additional observations from a re-analysis of the deposited data

Results flagged for a closer look

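In endothelium 6 of the 31 genes tested were higher in both BPTES libraries than in both DMSO libraries, a share near that of all genes (21.2%), and 3 (Mcm2, Cdt1 and Hells) were lower without overlap, against 21.4% of all genes. The 6 were lower in both BPTES libraries of other populations, as follows. The differences between populations were not tested for these genes. Mki67 had a log2 fold change of 2.47 in endothelium and was lower in macrophages, lymphocytes and tubule cells. Tpx2 had 1.96 in endothelium and was lower in macrophages and tubule cells. Kif20a had 2.78, Ccnb2 1.9, Aurka 1.67 and Cenpe 0.89 in endothelium, and each was lower in tubule cells. Of these, Kif20a alone passed the edgeR threshold in endothelium. Kif20a and Aurka had passed the filter on low counts only through the BPTES libraries. A single endothelial cell held 49.0% of the G2/M UMIs of this population in BPTES library 1 and another 64.1% in BPTES library 2, against 15.5% and 29.8% in the DMSO libraries. In BPTES library 1 these UMIs lay mostly in a cluster with 780, of which 1 cell had 3 or more, and a cluster with 692, of which 2 cells did.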

How the results depend on the processing

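The number of members called moved as follows, with counts of all genes called in brackets where they are given. In macrophages (13 called) it ranged from 4 (56 of 14823 genes) to 22 (135 of 14912) when 1 library was left out, was 31 with cells assigned by their own markers (1443 of 14465) and 0 with a replicate block, under which no gene of any kind passed and the members' median was -1 in place of -0.93. In lymphocytes (0) it was 4 with DESeq2 (439 of 14183), 5 without the low-count filter (387 of 22057), 7 with a replicate block (563 of 14183) and 0 to 6 with a library left out (727 of 14685 at 6). In dendritic cells (0) it was 2 without the filter (2180 of 21148) and also moved with a library left out. In endothelium (1) it was 8 without the filter (675 of 21213), 0 to 10 with a library left out (158 of 14402 at 10), and 0 with DESeq2, a replicate block, a mitochondrial limit of 25%, doublets kept, cell cycle genes in the clustering or own markers. In tubule cells (0) it was 5 with DESeq2 (511 of 17375) and 0 to 21 with a library left out (790 of 17792 at 21). For the interaction (0) it was 4 without the filter (175 of 23352) and also moved with a library left out. Its median of -0.55 turned to 0.41 with doublets kept. In the other single classes (4) it was 19 with DESeq2, 54 without the filter, 33 with a replicate block, 10 with the 25% limit, 8 with doublets kept and 1 to 41 with a library left out; calls over all genes moved too, in proximal tubule from 160 of 16092 to 2385 with the block. The causes were not tested.

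The log2 ratio of the share of cells with at least 3 list UMIs was -0.1 in macrophages, -0.07 in lymphocytes, -0.07 in dendritic cells, -0.17 in endothelium and -0.26 in tubule cells. In that order it was -1.11, -0.46, -0.15, 0.09 and -1.13 after thinning, -1.14, -1.09, -0.15, -1.21 and -1.16 for the G2/M genes, and -1.82, -1.09, 0.18, -0.23 and -2.45 for the G2/M genes after thinning. At 100 or more list UMIs it was -1.8, -1.26, -0.11, -0.03 and -2.32. At 5 or more it was -0.26 in macrophages, -0.15 in lymphocytes, -0.07 in dendritic cells, -0.33 in endothelium and -0.46 in tubule cells. Without Stmn1 and Hmgb2 it was -0.26, -0.14, -0.02 and -0.23 in macrophages, lymphocytes, dendritic cells and endothelium, and with own markers -0.13 in endothelium. Thinned and without both genes it was -1.56, -0.65, -0.07, -0.2 and -1.69. That measure, the G2/M and 100-UMI measures, and leaving out clusters led by the genes, were chosen after seeing the data. The thinned G2/M shares of endothelium, tubule cells and lymphocytes under BPTES lay within the limit that the neutrophils allow. So did the thinned G2/M share of macrophages in BPTES library 1 and the thinned tubule shares without both genes. Ratios that use these shares rest on values not shown to be above background, as the limit is set by the number of neutrophils.

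Replicate numbers pair the libraries by number alone: same-numbered deviations over the genes correlated at -0.085 in macrophages, 0.145 in lymphocytes, 0.091 in dendritic cells, 0.061 in endothelium and 0.139 in tubule cells. With 2 libraries a group, precision is limited by the libraries and, for genes with few UMIs, by single cells.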

Other observations

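Other classes also carried list UMIs, given here as CPM of the 40 genes summed. Monocytes gave 440 and 429 under BPTES and 456 and 538 under DMSO. Plasma cells gave 358 and 222 under BPTES, from 253 and 196 cells, and 2840 and 673 under DMSO, from 25 and 26 cells. In the DMSO libraries 3 and 2 plasma cells with at least 100 list UMIs held 95.1% and 66.5% of these, and without such cells the class gave 237 and 151 against 183 and 261, overlapping. Natural killer cells gave 1130 and 1240 against 641 and 1320, innate lymphoid cells 485 and 555 against 1250 and 451, and neutrophils 695 and 670 against 913 and 550, a class that joined a cluster of 131 cells led by Adgre4, Ear2 and Cd300e to the one led by S100a9. A single cell held 59.6% of the innate lymphoid list UMIs in DMSO library 1 and another 47.1% of the natural killer cell list UMIs in BPTES library 2, with 44.7% in 1 cell of DMSO library 2. Unnamed clusters gave 425 and 588 against 524 and 531. In fibroblasts DMSO library 1 gave 1230, and a single cell with 1265 list UMIs held 73.9% of these, while the other libraries gave 209 to 241.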
